A study of Mus musculus with 9 samples.

Results

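Transcripts of striated muscle were followed in 9 RNA-seq libraries of mouse aorta through 33 named genes, out of 33293 gene identifiers in the deposited table. All 33 were found by their symbols in GENCODE mouse release M21. By the muscle in which each is chiefly known, 16 were grouped as skeletal, 9 as cardiac and 8 as shared by both. All libraries came from aorta of male mice aged 7 to 8 weeks that ate normal chow. In 5 of them (WT) the mice were wild-type C57BL/6J, and in 4 (Apoe_KO) they lacked Apoe, which encodes the lipid carrier apolipoprotein E. The sources used here do not give the deleted part of Apoe, the strain of the knockout, the stretch of aorta taken or whether each library is a separate animal, so p-values measure only the spread between these samples.

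Striated muscle contracts through sarcomeres, in which thick filaments of myosin pull on thin filaments of actin carrying tropomyosin and the troponin complex. Titin runs from the Z-disc to the M-band, and alpha-actinins anchor the thin filaments at the Z-disc. Fast skeletal fibres, slow skeletal fibres, atrial muscle and ventricular muscle use different forms of most of these proteins, so the form that is transcribed tells the kinds of muscle apart. The contractile cells of the aortic media are smooth muscle, which has no sarcomeres and uses other forms, such as Acta2 and Myh11. Several of the 33 genes encode no part of the sarcomere: Nppa and Nppb encode natriuretic peptide hormones, Mb encodes myoglobin, Eno3 the muscle enolase of glycolysis, Pvalb the calcium buffer parvalbumin, Atp2a1 the calcium pump of fast fibres and Sln its small inhibitor sarcolipin.

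Levels are given as FPKM, which scales counts by exonic length and by sequencing depth. Whole reads could be recovered from them, and the depths found in this way were 17.0 to 19.8 M reads. At these depths a 2 kb gene with 1 read has 0.0253 to 0.0294 FPKM. Apoe was at 513 to 643 FPKM in WT and at 5.64 to 6.55 FPKM in Apoe_KO, as labelled in every library. The smooth muscle markers fixed for the vessel wall were present throughout, with Acta2 at 3683 to 4669 FPKM. WT 2 and Apoe_KO 4 stood apart through B cell transcripts, with Cd79a at 54.2 and 65.1 FPKM and at most 2.78 FPKM elsewhere. All 3 classes of muscle genes were minor transcripts. The skeletal members made up 0.00307% to 0.0245% of the summed FPKM of a library, the cardiac members 0.00354% to 0.0278% and the shared members 0.0170% to 0.0338%.

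RefSeq promoter windows (GRCm38.p6) were matched by symbol for 27 of the 33 genes. A search on both strands found the CArG box, the site of serum response factor, in 5 of these windows and the MEF2 site in 5, with Myh4 holding both. Each window ran from 250 bases before to 50 bases after the start, and over all 32851 windows of that length the shares were 1.63% and 3.19%. The E-box CANNTG was in 23 of the 27, against 72.3% of all windows, and TATAAA in 10, against 13.6%. The 200 bases before the start are shown for 4 genes with a CArG box and different patterns across libraries: the skeletal actin gene Acta1 (chr8:123894776-123894975, minus strand), the fast myosin gene Myh4 (chr11:67237612-67237811, plus strand), the cardiac actin gene Actc1 (chr2:114052876-114053075, minus strand) and the atrial light chain gene Myl7 (chr11:5898783-5898982, minus strand). Capitals mark the CArG box in all 4 and, first in Myh4, the MEF2 site.
Acta1: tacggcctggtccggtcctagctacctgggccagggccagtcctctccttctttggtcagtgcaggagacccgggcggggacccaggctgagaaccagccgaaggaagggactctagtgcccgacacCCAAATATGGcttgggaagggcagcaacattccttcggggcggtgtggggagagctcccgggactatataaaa
Myh4: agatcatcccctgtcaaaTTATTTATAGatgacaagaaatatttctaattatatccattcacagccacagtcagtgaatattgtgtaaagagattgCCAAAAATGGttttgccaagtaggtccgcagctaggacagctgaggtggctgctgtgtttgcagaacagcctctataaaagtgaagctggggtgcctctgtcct
Actc1: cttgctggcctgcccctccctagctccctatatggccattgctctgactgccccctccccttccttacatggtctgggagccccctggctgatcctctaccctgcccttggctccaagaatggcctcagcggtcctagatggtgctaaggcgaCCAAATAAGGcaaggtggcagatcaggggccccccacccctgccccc
Myl7: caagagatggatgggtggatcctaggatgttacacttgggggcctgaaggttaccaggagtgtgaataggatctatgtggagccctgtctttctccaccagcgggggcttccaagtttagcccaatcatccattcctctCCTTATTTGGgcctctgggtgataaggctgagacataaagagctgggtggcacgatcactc
The CArG box began 73 bases before the start in Acta1, 104 in Myh4, 47 in Actc1 and 61 in Myl7, and the MEF2 site of Myh4 began at 182. These matches are descriptions of sequence.

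The skeletal members were high in 1 library. Their summed level was 11.2, 20.9, 80.0, 23.6 and 9.43 FPKM in WT 1 to 5 and 12.2, 13.5, 20.02 and 22.0 FPKM in Apoe_KO 1 to 4. WT 3 lay far above the rest, and the Apoe_KO libraries lay within the range of the other WT libraries. The WT mean was 29.0 ± 29.1 FPKM (SD, n = 5) and the Apoe_KO mean 16.9 ± 4.82 FPKM (SD, n = 4). Without WT 3 the WT mean was 16.3 ± 7.01 FPKM (SD, n = 4). On the log2 scale the mean of Apoe_KO minus that of WT was -0.36 with WT 3 and 0.12 without it. In bulk tissue fewer cells of a type and less RNA per cell cannot be told apart.

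**Figure D1:**
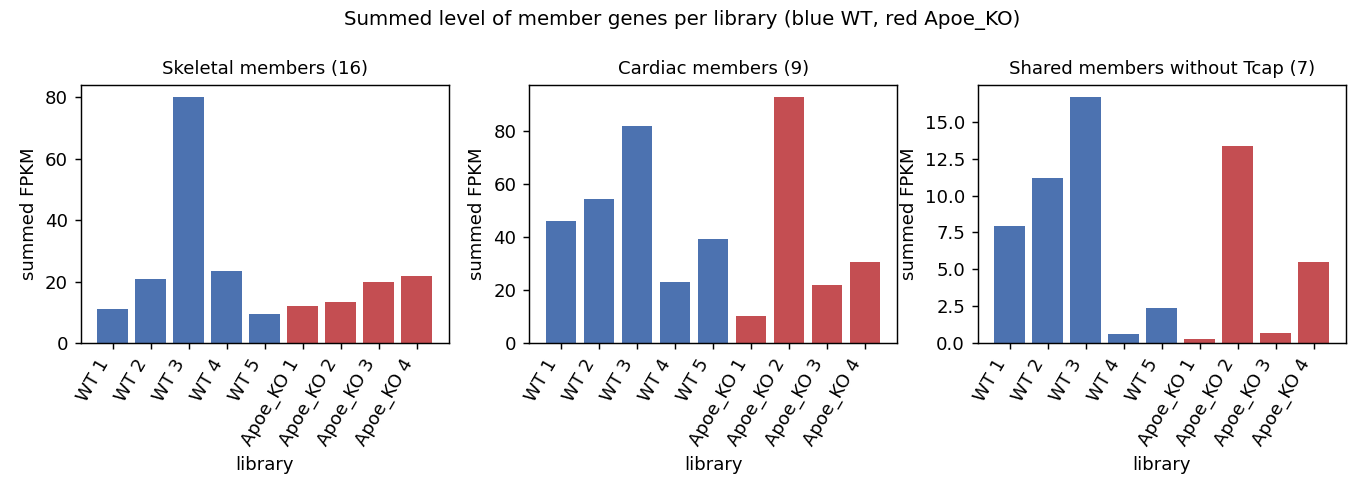
Summed FPKM (y axis, from 0) of the 16 skeletal members, the 9 cardiac members and the 7 shared members other than Tcap in each of the 9 libraries (x axis; blue WT, red Apoe_KO). Bars are single libraries: skeletal transcripts peak in WT 3 at 80.0 FPKM, whereas cardiac transcripts are highest in Apoe_KO 2 at 92.8 FPKM and WT 3 at 82.2 FPKM.

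Among the myosin heavy chains of fast fibres, WT 3 was highest for Myh4, the form of the fastest (type IIb) fibres. Myh4 was at 0.0252, 0.0782, 8.51, 1.01 and 0.0179 FPKM in WT 1 to 5 and at 0.0511, 0.0269, 1.36 and 1.59 FPKM in Apoe_KO 1 to 4. WT 3 held 965 reads of Myh4, WT 4, Apoe_KO 3 and Apoe_KO 4 held 116 to 176, and the other 5 libraries held 2 to 8. Myh1, of type IIx fibres, did not share this order. It was at 0.276 FPKM in WT 3 and highest in Apoe_KO 3 (0.652 FPKM) and WT 2 (0.611 FPKM). Myh2, of type IIa fibres, stayed at or under 0.143 FPKM. These 3 genes lie side by side on chromosome 11 and resemble each other: 25.4% of the 50-base windows in Myh1 transcripts, 22.9% in Myh2 and 18.9% in Myh4 recur in transcripts of other genes, so reads could have been split between them. The antisense gene Myhas also covers 8.11% of the exonic bases of Myh1. Mylpf, the fast regulatory light chain, was at 5.50 FPKM in WT 3 and at 0.708 to 2.36 FPKM elsewhere. Mybpc2, the fast myosin-binding protein C, was also highest in WT 3, at 2.38 FPKM, with 0.818 to 1.98 FPKM elsewhere.

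The thin filament genes showed the same library. Acta1, skeletal alpha-actin, was at 0.725, 3.29, 15.0, 3.40 and 1.64 FPKM in WT 1 to 5 and at 0.934, 0.596, 2.97 and 2.38 FPKM in Apoe_KO 1 to 4. WT 3 was 7.44 times the median of the other 8 libraries, and Apoe_KO lay within the range of WT apart from its lowest library. Tnnt3, the fast troponin T that binds tropomyosin, was at 9.59 FPKM in WT 3 and at 0.849 to 3.12 FPKM elsewhere. Tnni2, the inhibitory subunit of fast troponin, was at 5.67 FPKM in WT 3 and at 0.135 to 1.15 FPKM elsewhere. Tnnc2, the calcium-binding subunit of the same complex, was listed at 0 in every library. The gene Ube2c lies antisense over 74% of its exonic bases, and the sources used here do not say whether the counting used strand. Neb, nebulin, which runs along the thin filament, was low everywhere at 0.0728 to 0.214 FPKM.

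Calcium handling genes of fast fibres had their highest values in WT 3 as well. Pvalb was at 0.146, 0.791, 12.8, 3.62 and 0 FPKM in WT 1 to 5 and at 0.295, 0, 0.765 and 0.733 FPKM in Apoe_KO 1 to 4. WT 3 and WT 4 exceeded every other library. Atp2a1 was at 4.30 FPKM in WT 3 and at 0.0884 to 1.16 FPKM elsewhere, though Rabep2 lies antisense over 21.9% of its exonic bases. Actn3, the alpha-actinin of fast fibres, was at 3.17 FPKM in WT 3 and at 0.230 to 1.36 FPKM elsewhere. Eno3 differed less, with 11.4 FPKM in WT 3 and 3.46 to 7.86 FPKM elsewhere.

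The slow troponin genes were not high in WT 3. There Tnnt1, slow troponin T, was at 0.963 FPKM against a median of 0.831 FPKM in the other 8 libraries, a ratio of 1.16. Tnni1, slow troponin I, had a ratio of 0.924 by the same measure. The ratios of Myh4, Pvalb, Tnni2 and Atp2a1, the highest of the skeletal members, were 132, 25.0, 15.98 and 14.4. Tnnt3, Mylpf, Actn3, Eno3 and Mybpc2 had lower ratios of 7.17, 5.18, 4.79, 2.09 and 1.98. Myh1 and Myh2, also of fast fibres, had ratios of 1.16 and 0.761, near those of the slow troponin genes. Myh7, the myosin heavy chain of slow fibres and of the ventricle, was highest in WT 3, at 0.203 FPKM (33 reads) and 5.29 times the median of the others. Myl2, the light chain of slow fibres and ventricle, had at most 3 reads in any library and gives no order. Of the 16 skeletal members 11 had their highest value in WT 3. The exceptions were Myh1, Myh2, Tnnt1, Tnni1 and Tnnc2, the last being at 0.

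**Figure D2:**
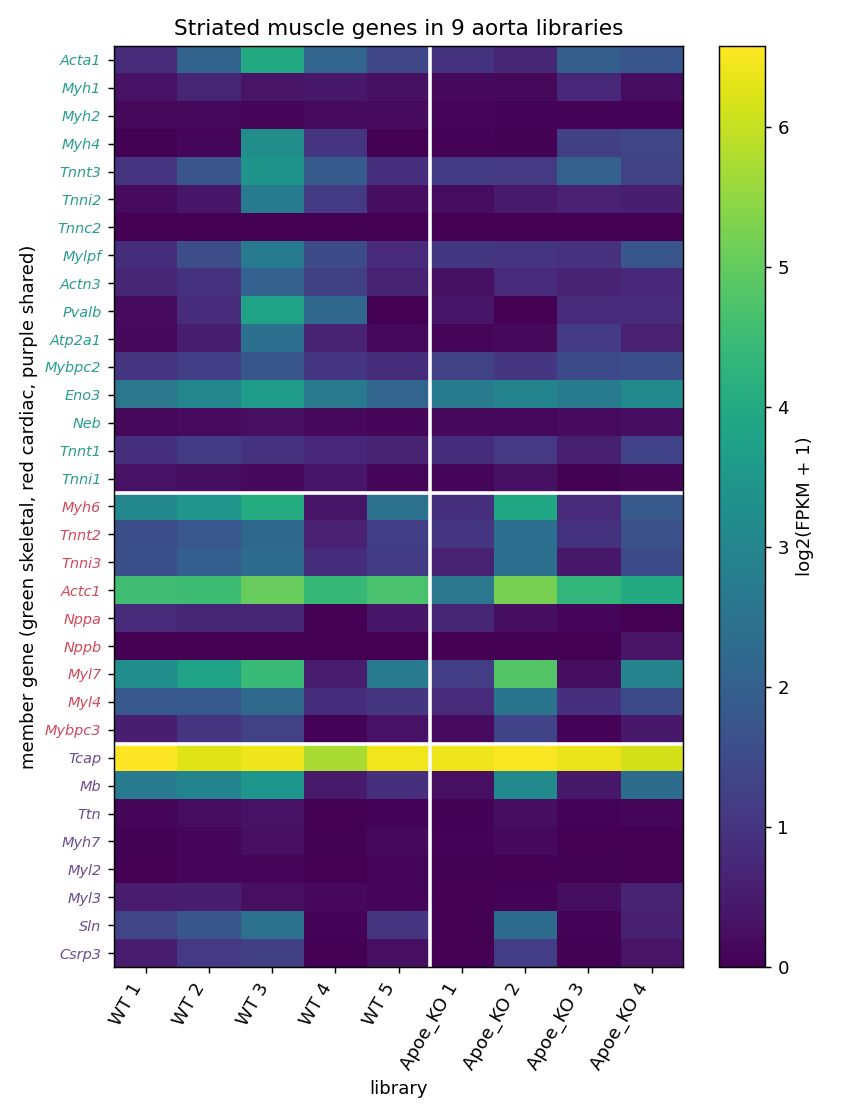
Level of each of the 33 genes (rows; skeletal, cardiac and shared from top to bottom) in each library (columns; WT left and Apoe_KO right of the white line) as log2(FPKM + 1), the scale of the colours. Most fast skeletal genes stand out in WT 3, though Myh1 and Myh2 do not. Most cardiac genes are low in WT 4, Apoe_KO 1 and Apoe_KO 3, but Actc1 is low only in Apoe_KO 1 of these. Tcap is high in all 9 libraries.

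The cardiac members followed another order of libraries. Their summed level was 46.1, 54.5, 82.2, 23.1 and 39.2 FPKM in WT 1 to 5 and 10.3, 92.8, 22.1 and 30.7 FPKM in Apoe_KO 1 to 4. Apoe_KO 2 and WT 3 were highest and Apoe_KO 1 lowest, so the range of Apoe_KO enclosed that of WT. The means were 49.0 ± 21.8 FPKM in WT (SD, n = 5) and 39.0 ± 36.9 FPKM in Apoe_KO (SD, n = 4). On the log2 scale the mean of Apoe_KO minus that of WT was -0.67. It was -0.18 without Apoe_KO 1, -1.24 without Apoe_KO 2 and -0.45 without WT 3. Without the actin gene Actc1 the sum was 23.7, 32.3, 49.8, 2.94 and 14.3 FPKM in WT 1 to 5. In Apoe_KO 1 to 4 it was then 5.20, 56.4, 3.19 and 15.5 FPKM. Apoe_KO 2 and WT 3 stayed highest, but WT 4 was lowest, and the range of Apoe_KO no longer enclosed that of WT.

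Myh6, the alpha myosin heavy chain of the mouse heart, was at 7.35, 9.86, 15.8, 0.303 and 4.505 FPKM in WT 1 to 5 and at 0.838, 14.4, 0.758 and 2.55 FPKM in Apoe_KO 1 to 4. Reads ran from 39 in WT 4 to 2008 in WT 3, a ratio of FPKM of 52.3. WT 4, Apoe_KO 1 and Apoe_KO 3 were each under 1 FPKM. Myl7, the regulatory light chain of atrial muscle, was at 8.57, 12.9, 20.5, 0.443 and 5.55 FPKM in WT 1 to 5 and at 1.30, 26.9, 0.180 and 6.65 FPKM in Apoe_KO 1 to 4. The same 3 libraries were lowest, and Apoe_KO 2 was highest. Myh6 shares 1381 of its 6851 distinct 50-base windows with Myh7, while no window of Myl7 recurs in another gene.

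In 4 more thick and thin filament genes of the heart the same 3 libraries were lowest. Myl4, the essential light chain of the atrium, was at 0.707 to 0.882 FPKM in WT 4, Apoe_KO 1 and Apoe_KO 3 and at 1.07 to 4.86 FPKM elsewhere. Tnni3, cardiac troponin I, was at 0.335 to 0.811 FPKM in those 3 libraries and at 1.25 to 4.28 FPKM elsewhere. Tnnt2, cardiac troponin T, had 0.533 to 1.07 FPKM against 1.34 to 4.25 FPKM, and Mybpc3, cardiac myosin-binding protein C, 0.0383 to 0.148 FPKM against 0.245 to 1.501 FPKM. Of the 9 cardiac members 6 were highest in Apoe_KO 2.

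The atrial light chains summed to more than the ventricular light chains in every library. The summed level of Myl7 and Myl4 was 1.24 to 24.3 FPKM in WT and 1.06 to 31.8 FPKM in Apoe_KO. That of Myl2 and Myl3, the light chains of the ventricle and of slow skeletal fibres, was 0.128 to 0.551 FPKM in WT and 0.0263 to 0.586 FPKM in Apoe_KO. Myl3 was highest in Apoe_KO 4 (0.586 FPKM), where Myl7 was not, and Pth1r lies antisense over 4.65% of its exonic bases. In Apoe_KO 3, Myl7 held 2 reads (0.180 FPKM) and Myl3 held 7 reads (0.182 FPKM). Most of the atrial sum there was Myl4, at 0.882 FPKM. In WT 4, Myl7 held 5 reads, and Myl4 was at 0.801 FPKM. Myh6, Tnni3 and Mybpc3, which the mouse ventricle uses as well as the atrium, reached 15.8, 4.28 and 1.501 FPKM. Nppa, the atrial peptide, had 13 reads or fewer per library and was at 0 in WT 4 and Apoe_KO 4, while Nppb was at 0 in all libraries except Apoe_KO 4, with 4 reads. Gm13054 lies antisense over 61.5% of Nppa. Over the depths of all libraries, a count of 0 for Nppa would allow up to 0.176 to 0.204 FPKM, counting error only.

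Actc1, cardiac alpha-actin, was the most abundant cardiac member and had another order of libraries. It was at 22.4, 22.2, 32.4, 20.2 and 24.9 FPKM in WT 1 to 5 and at 5.07, 36.4, 18.9 and 15.2 FPKM in Apoe_KO 1 to 4. In WT 4 and Apoe_KO 3, where Myh6 was under 1 FPKM, Actc1 was at 20.2 and 18.9 FPKM, and Apoe_KO 1, at 5.07 FPKM, was the lowest library. None of its 50-base windows recurs in another gene, the smooth muscle actin Acta2 included.

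Of the shared members, Mb, Sln, Csrp3 and Ttn each had their 3 lowest values in WT 4, Apoe_KO 1 and Apoe_KO 3, the libraries lowest in Myh6. Mb, which stores oxygen in muscle, was at 5.39, 6.86, 9.996, 0.386 and 0.864 FPKM in WT 1 to 5 and at 0.206, 7.69, 0.356 and 4.05 FPKM in Apoe_KO 1 to 4. Gm49540 lies antisense over 27.6% of its exonic bases. Sln was at 1.57, 2.37, 4.55, 0.0397 and 0.978 FPKM in WT and at 0, 4.01, 0.0403 and 0.496 FPKM in Apoe_KO, so that WT 3 and Apoe_KO 2 were highest, as for Mb. Csrp3, a Z-disc LIM protein, was at 0 in WT 4 and Apoe_KO 1 and reached 1.35 FPKM in WT 3 and 1.29 FPKM in Apoe_KO 2. Ttn, titin, was at 0.0134 to 0.255 FPKM, which on its 116825 exonic bases were 30 to 561 reads. WT 4 was second only to WT 3 for Pvalb and Tnni2, whereas Mb, Sln and Csrp3 were at 0.386, 0.0397 and 0 FPKM there.

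Tcap, telethonin, which caps titin at the Z-disc, was the most abundant member in every library. It was at 94.5, 75.3, 83.4, 52.1 and 85.4 FPKM in WT 1 to 5 and at 84.1, 91.2, 82.1 and 69.8 FPKM in Apoe_KO 1 to 4. Its highest value was 1.81 times its lowest, with 945 to 1770 reads per library, and the groups overlapped. The values of Tcap in WT 4 and Apoe_KO 1, the libraries lowest in Ttn, were 52.1 and 84.1 FPKM. No annotated exon of another gene overlaps Tcap and no 50-base window of it recurs elsewhere. With Tcap the shared sum was 85.9 ± 19.9 FPKM in WT (SD, n = 5) and 86.7 ± 12.5 FPKM in Apoe_KO (SD, n = 4). Without Tcap it was 7.74 ± 6.55 and 4.95 ± 6.08 FPKM, and ran from 0.293 FPKM in Apoe_KO 1 to 16.7 FPKM in WT 3.

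No member differed between the genotypes by the test. The comparison used limma on log2(FPKM + 1) for genes reaching 1 FPKM in 4 or more libraries, and 15 of the 33 members passed this filter. Of these 15, 0 were called at an adjusted p under 0.05, against 7.35% of all 13383 tested genes, and 0 had an unadjusted p under 0.05. On recovered reads with voom both counts were also 0. The lowest adjusted p was 0.417, for Actc1, with a log2 fold change of -0.61 (SE 0.43, 95% interval -1.57 to 0.35). Myh6 had a log2 fold change of -0.82 (SE 0.83), Myl7 of -0.65 (SE 1.00), Acta1 of -0.74 (SE 0.58) and Sln of -0.59 (SE 0.57), and their limma adjusted p were 0.588, 0.731, 0.471 and 0.573. The intervals were wide, from -2.69 to 1.05 for Myh6 and from -2.90 to 1.61 for Myl7, so differences within those bounds were not resolved by these libraries. For Tcap the interval was narrower than these, -0.27 to 0.44 around 0.087, though its SE of 0.16 exceeded the median of 0.11 over all tested genes.

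**Figure D3:**
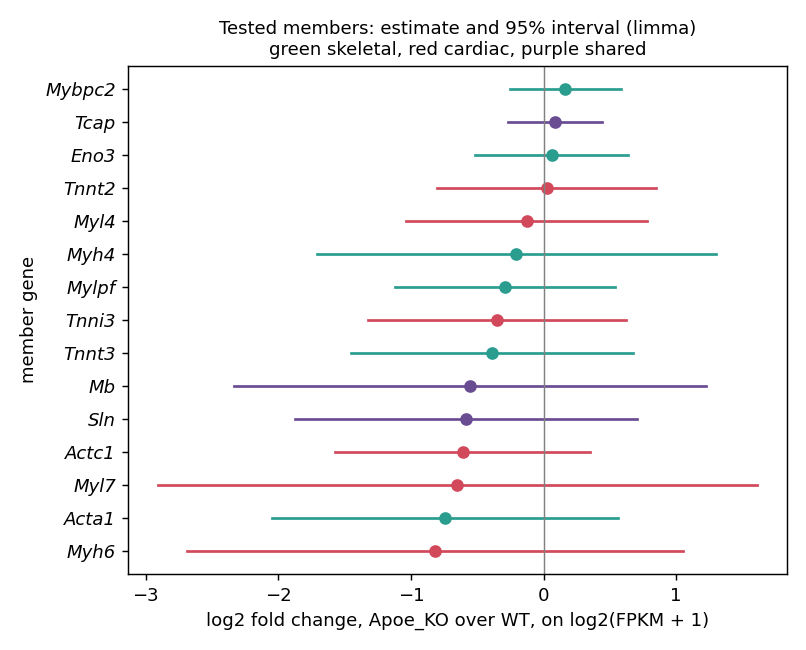
Log2 fold change of Apoe_KO over WT on the log2(FPKM + 1) scale (x axis) for the 15 tested members (y axis), as points with 95% intervals from limma (green skeletal, red cardiac, purple shared). Every interval includes 0, and those of Myl7, Myh6 and Mb are the widest.

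The tested members are not all members, and their median log2 fold change of -0.35, against -0.069 over all tested genes, describes only those that passed the filter. Without the filter 32 members had a value, and 0 were called, against 1.46% of 30432 genes (0.812% higher and 0.651% lower), with 1 unadjusted p under 0.05. That gene was Myh2, with a log2 fold change of -0.081 (limma adjusted p = 0.362). It was also the 1 member whose groups did not overlap, whereas 6.71% of genes were so separated without the filter. Myh2 was at 0.106, 0.0989, 0.0595, 0.139 and 0.143 FPKM in WT and at 0.0574, 0.0453, 0.0521 and 0.0382 FPKM in Apoe_KO, or 8 to 19 reads against 5 to 8. The WT mean was above the Apoe_KO mean in 26 of the 33 members, and in 17 once WT 3 was left out. No share over all genes is given for this comparison of FPKM means. By another measure, the sign of the fitted log2 fold change, most genes past the filter leaned the same way. It was below 0 in 63.9% of all tested genes and in 11 of the 15 tested members.

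The tested members varied between libraries of 1 genotype. The SD within genotype on the log2(FPKM + 1) scale had a median of 0.74 over the 15 tested members and 0.16 over all tested genes. It lay above the 95th percentile of all tested genes in 12 of the 15 and above the 99th in 6, which were Myl7, Myh6, Mb, Myh4, Acta1 and Sln. Eno3, Mybpc2 and Tcap lay at percentiles 92.9, 84.7 and 80.3. The members were chosen with earlier results of these data known, so the percentiles are descriptions without a test. Sln and Myh4 passed the filter only through the 4 libraries where each was highest.

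**Figure D4:**
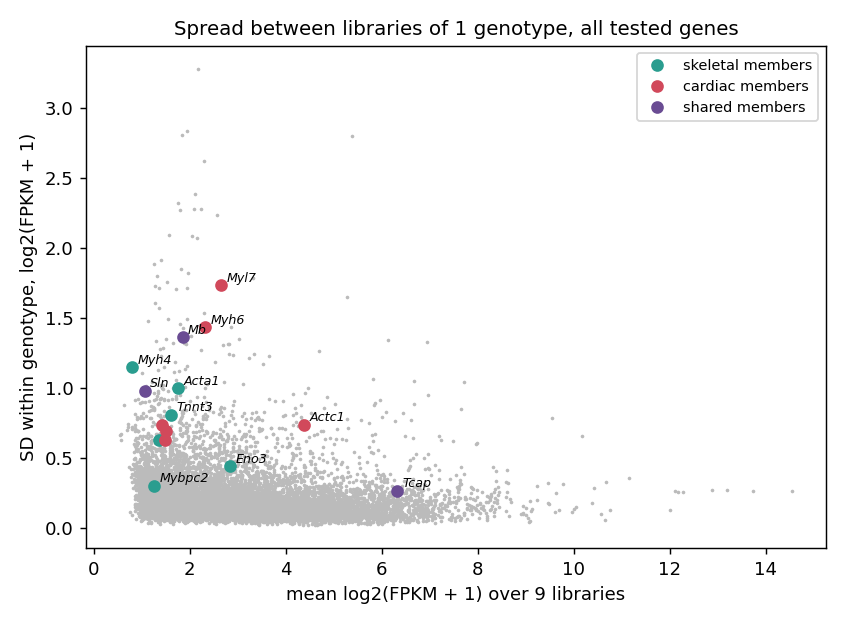
SD within genotype (y axis) against the mean (x axis), both on the log2(FPKM + 1) scale over 9 libraries, for all 13383 tested genes (grey) and the 15 tested members (coloured by class; Mylpf, Myl4, Tnnt2 and Tnni3 carry no name). Myl7 has the largest spread of the members, at 1.73, and Tcap the smallest, at 0.27.

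Markers of tissues around the vessel also differed between these libraries. The 10 brown fat markers, none of them at 0 throughout, summed to 526 to 1081 FPKM in WT and to 443 to 1102 FPKM in Apoe_KO, and the highest libraries were WT 3 and Apoe_KO 2, the libraries highest in cardiac genes. The defining marker Ucp1 was at 456 and 459 FPKM there and at 146 to 338 FPKM elsewhere, and 0 of the 8 tested markers were called. The 7 epithelial and liver markers summed to 28.4 FPKM in WT 3, the library highest in fast skeletal genes, to 2.47 to 6.88 FPKM in the other WT libraries and to 2.73 to 3.12 FPKM in Apoe_KO. In WT 3 the club cell gene Scgb1a1 was at 10.8 FPKM, the alveolar gene Sftpc at 4.57 FPKM and the albumin gene Alb at 12.2 FPKM, while Krt5 was at 0. These 3 of the 7 markers had their highest value in WT 3. Their part in the muscle values was not tested. Among the regulators of muscle identity, Myf5 was at 0 in every library, and Myod1, Myog and Myf6 were at or under 0.168 FPKM.

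Other genes of striated muscle were followed as companions. Of 60 such genes, 59 were in the table, 37 were above 0 in every library and 22 were at 0 in at least 1. Of them 25 passed the filter, and 3 were called higher and 1 lower in Apoe_KO. Over all tested genes 3.43% were called higher and 3.92% lower. Myom1, myomesin, which links thick filaments at the M-band, was at 51.1, 53.1, 53.8, 51.1 and 49.6 FPKM in WT and at 106, 62.3, 86.0 and 66.7 FPKM in Apoe_KO. Xirp1, an actin-binding protein of cell junctions, rose from 8.22 ± 1.57 FPKM in WT (SD, n = 5) to 19.1 ± 5.11 FPKM in Apoe_KO (SD, n = 4). Its log2 fold change was 1.10 (SE 0.18, limma adjusted p = 0.00782). Myoz2, which binds calcineurin at the Z-disc, rose from 2.89 ± 0.554 to 7.03 ± 0.750 FPKM, by 1.05 on the log2 scale (SE 0.12, limma adjusted p = 0.00150). The groups did not overlap for any of these 3. Casq1, the calcium-storing protein calsequestrin of skeletal muscle, was at 38.9, 33.9, 38.9, 26.7 and 25.5 FPKM in WT and at 24.1, 19.3, 15.8 and 16.4 FPKM in Apoe_KO. It fell by 0.76 on the log2 scale (SE 0.16, limma adjusted p = 0.0233), again with groups that did not overlap.

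**Figure D5:**
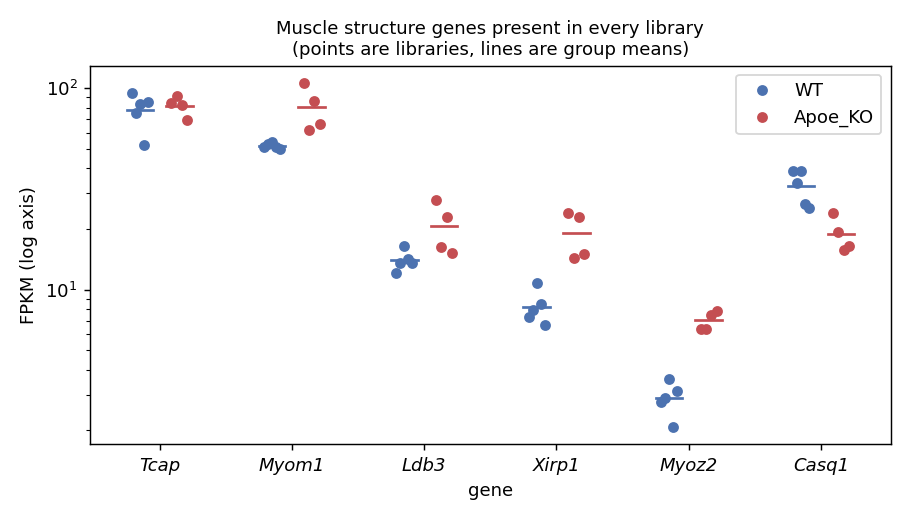
FPKM on a log axis (y axis) of Tcap and of 5 companion genes (x axis) in each library (points; blue WT, red Apoe_KO), with group means as lines. Myom1, Xirp1 and Myoz2 are higher and Casq1 lower in every Apoe_KO library than in every WT library, while the groups overlap for Tcap and Ldb3.

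The calls of Xirp1 and Myoz2 held when any 1 library was left out, but those of the other genes did not. Myom1 had a log2 fold change of 0.59 (SE 0.14, limma adjusted p = 0.0329). Its adjusted p was 0.0662, 0.0644, 0.0532, 0.0745 and 0.0721 without WT 1 to 5 in turn and 0.1003 without Apoe_KO 3. That of Casq1 was 0.0505 without WT 1, 0.0541 without WT 2, 0.0787 without Apoe_KO 3 and 0.0580 without Apoe_KO 4. With no filter the adjusted p were 0.0855 for Myom1 and 0.0631 for Casq1, and without both WT 2 and Apoe_KO 4 they were 0.0648 and 0.105. With a replicate block that of Myom1 was 0.137. Ldb3, a Z-disc PDZ protein, averaged 14.0 ± 1.62 FPKM in the WT libraries (SD, n = 5) and 20.6 ± 5.93 FPKM in those of Apoe_KO (SD, n = 4) and was not called (limma adjusted p = 0.101). The tropomyosin genes Tpm2 and Tpm3, which smooth muscle also uses, were at 277 and 25.5 FPKM in WT and at 276 and 26.6 FPKM in Apoe_KO. Myl12a lies antisense over 1.98% of Myom1 and Gm17224 over 8.00% of Casq1. In WT 3 and Apoe_KO 2, the libraries highest in Myh6 and Mb, Xirp1 was at 10.7 FPKM, the highest of WT, and at 14.3 FPKM, the lowest of Apoe_KO. Beside these genes, 2 of the 14 smooth muscle markers were called higher, Des by 0.39 and Actn1 by 0.42 on the log2 scale (limma adjusted p = 0.0246 and 0.0464), and 2 of the 7 tested regulators of muscle genes, Mef2d by 0.39 and Gata6 by 0.32 (limma adjusted p = 0.0114 and 0.0371). Over all tested genes the shares were 3.43% higher and 3.92% lower. Some markers of other cells of the vessel and its surroundings were called lower in Apoe_KO: 2 of 7 for white fat and 1 of 6 for endothelium. These were Lep, which encodes leptin, and Plin1, a lipid droplet protein (log2 fold changes of -1.73 and -0.56, limma adjusted p = 0.0276 and 0.0466), and the VEGF receptor gene Kdr (-0.58, limma adjusted p = 0.0184). None was called among 4 tested B cell markers, 6 actins and myosins of other cells and 2 tested epithelial markers. The adjusted p of Actn1, Plin1 and Gata6 lay near the threshold, and fits without single libraries are not given for these markers. The white fat markers, none at 0 throughout, summed to 3734 to 5832 FPKM in WT and to 2401 to 4619 FPKM in Apoe_KO, and those of endothelium to 178 to 310 and 162 to 284 FPKM. The 5 red blood cell markers, of which 0 were called, summed to 136 to 1006 FPKM in WT and to 36.6 to 366 FPKM in Apoe_KO. The part of these markers in the muscle values was not tested.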

How the data were processed

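RNA of aorta was measured in 5 WT and 4 Apoe_KO libraries. The labels' protocol describes removal of rRNA, while their molecule field names polyA RNA. The authors deposited 1 table of 33293 genes with no unit in its header. Its values were taken as FPKM: times the exonic length in GENCODE M21, they gave whole reads (within 0.1 read) at a single depth per library for 97.6% to 97.9% of deposited FPKM values worth under 50 reads. GRCm38 and limma are named in the submitters' processing notes, and the sources used here do not give the aligner, the counting or its strandedness. Symbols were matched for 33240 identifiers.

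The main test ran on 13383 genes that reached 1 FPKM in 4 or more libraries, with limma 3.58.1 (R 4.3.3, trend and robust) on log2(FPKM + 1), genotype as the only term, Benjamini-Hochberg adjustment and a threshold of 0.05. Fold changes on this scale understate those of low genes. The script was tested on 3 sets of simulated data with 1 dispersion, 0.00978, for all genes. It recovered 92.7% of 1.5-fold and 99% of 2-fold changes, and 7.85% of calls were false. These simulations do not represent members with a larger spread. Python 3.11.15, numpy 2.4.6, pandas 2.3.3 and matplotlib 3.10.9 were used. The members and lists were chosen with earlier results of these data known. Named genes were all members, up to 4 called genes of smallest p per list, the most abundant companion genes of each kind of muscle, and the 5 other genes closest in profile to the skeletal and to the cardiac members. Ucp1, Scgb1a1, Sftpc, Alb, Krt5, Cd79a, Acta2 and the regulators at or near 0 were named after their values were seen, and so were the genes whose promoters are shown. A called gene of another list is not reported here. Alternatives were another pseudocount, no filter, median centring, a replicate block, library weights, voom on recovered reads and leaving out libraries.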

Additional observations from a re-analysis of the deposited data

Results flagged for a closer look

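Single libraries lay far from the others of their genotype in 14 of 77 combinations of a gene or sum with a genotype, by the gap of the extreme library to its nearest neighbour relative to the range of the group. Chance flags about 1 in 20 such groups if values are normally distributed. FPKM near 0 are not, so the rate here is not known, and genes of 1 muscle type share their library. The high value of WT 3 met this criterion for Acta1 (15.0 FPKM), Myh4 (8.51 FPKM), Tnnt3 (9.59 FPKM), Tnni2 (5.67 FPKM), Mylpf (5.50 FPKM), Pvalb (12.8 FPKM), Atp2a1 (4.30 FPKM) and the summed level of the skeletal members (80.0 FPKM). In Apoe_KO 2 it was met by Myh6 (14.4 FPKM) and Sln (4.01 FPKM), in Apoe_KO 3 by Myh1 (0.652 FPKM) and Tnnt3 (3.12 FPKM), and in Apoe_KO 4 by Mylpf (2.36 FPKM) and Nppb (0.279 FPKM, 4 reads). Nppb was at 0 in the other Apoe_KO libraries, so any value above 0 would have been flagged.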

How the results depend on the processing

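Over 16 alternatives, each applied to the 15 tested members, 0 of 240 fits were called, and the lowest adjusted p was 0.117 (limma). The sign changed in 19 fits of 8 members. Without 1 library in turn the log2 fold changes ran from -0.48 to 0.014 for Mylpf, -1.48 to 0.037 for Myl7, -0.61 to 0.017 for Tnnt3, -0.10 to 0.27 for Eno3, -0.50 to 0.091 for Myl4, -0.44 to 0.39 for Myh4, -0.050 to 0.16 for Tcap and -0.27 to 0.21 for Tnnt2. With the replicate block Eno3 was at -0.10 and Tnnt2 at -0.042, with library weights Tnnt2 was at -0.020, and with voom Myh4 was at 0.17. The cause was not tested. The difference in summed level of the shared members, 0.042 on the log2 scale with Tcap, was -1.23 without it, since Tcap makes up most of the sum. Among companion genes 1 was called lower, and 0 were with no filter or without WT 2 and Apoe_KO 4 together (added after seeing the data), and 0 to 1 when 1 library was left out. Over all genes 459 were called higher and 524 lower (983), and 630 and 269 after median centring. There were 183 calls with the replicate block (0 members), 445 with no filter, 1757 with library weights, 389 to 1258 without 1 library and 367 without WT 2 and Apoe_KO 4. Same-numbered libraries did not deviate together (r = 0.26, -0.27, -0.13 and -0.22 for numbers 1 to 4, across genes), so the numbers are not treated as pairs. Depth limits Myl2, Nppb, Nppa and Myh2, with at most 19 reads per library.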

Other observations

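Outside the lists, the genes whose log2(FPKM + 1) over the 9 libraries was closest to the mean profile of the skeletal members were Notch4 (r = 0.87), St6galnac2 (0.87), Sema3g (0.85), Sox18 (0.85) and Dis3l (0.85). For the cardiac members they were Aldh1b1 (r = 0.94), Atf6b (0.93), Chchd7 (0.92), Pigp (0.91) and Wfdc21 (0.90). These are the highest of 13339 genes compared over 9 libraries, whose genotype and depth the points share, and they are descriptions without a test. WT 3 was the highest library for the first set: Sox18 was at 22.5 FPKM there and at 10.9 to 16.6 FPKM in the other 8 libraries.

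The creatine kinase genes, picked after their values were seen, also varied between libraries. Ckm, of the cytosol of skeletal and heart muscle, was at 4.23 FPKM in WT 3 and at 0.158 to 1.62 FPKM elsewhere. Ckmt2, of muscle mitochondria, was at 2.93 FPKM in WT 3, 2.72 FPKM in Apoe_KO 2 and 0.0704 FPKM in WT 4, and it was at 0 in Apoe_KO 1.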
